A study of Mus musculus with 3 samples.

Results

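Transcripts of respiratory complex III, complex IV, their shared electron carrier cytochrome c and ATP synthase were measured in mouse bone marrow progenitors with and without the Runx1-Runx1t1 fusion. The members were taken by gene symbol, from the prefixes Uqcr, Cox4i, Cox5, Cox6, Cox7, Cox8, Atp5, mt-Co, mt-Atp and mt-Cytb together with Cyc1 and Cycs, and this found 51 of the 27998 listed genes. Of these, 45 are encoded in the nucleus and 6 in mitochondrial DNA. The nuclear genes divide into 9 for complex III, 18 for complex IV, 17 that carry the Atp5 prefix, and Cycs. Levels are transcript molecules counted by unique molecular identifiers (UMIs), summed over cells and scaled to a common library total (CPM). A level of 20 CPM was reached in 1 or more libraries by 44 members, 38 of them nuclear, and 7 stayed under it.

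Complex III passes electrons from reduced ubiquinone to cytochrome c and moves protons across the inner mitochondrial membrane. Complex IV takes the electrons from cytochrome c to oxygen, and ATP synthase uses the returning protons to make ATP. All except cytochrome c hold subunits from both genomes, so that nuclear genes and mitochondrial DNA have to supply parts of the same machines, and blood stem cells are known for relying less on this pathway than dividing progenitors do. In the t(8;21) fusion the DNA-binding part of Runx1 is joined to the corepressor Runx1t1.

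Single cells were profiled on the 10x Genomics droplet platform in 3 libraries of C57BL/6 bone marrow, all sorted as living, lineage-negative and c-kit-positive cells. Wild-type marrow from 1 mouse gave the control. A single mouse with Mx1-Cre and a heterozygous conditional Runx1-Runx1t1 knock-in followed by mCherry, induced with poly(I:C), gave both other libraries, as its non_mCherry and mCherry sort fractions. Mx1-Cre is driven by interferon, so the fusion is not limited to one blood cell type, and whether the wild-type mouse was given poly(I:C) is not stated. With 1 library per group and 2 mice in all, no test between groups was possible, and the intervals given are exact 95% intervals that cover counting error only. After filtering, the control, non_mCherry and mCherry libraries kept 8846, 7897 and 10218 cells with 143652946, 87777175 and 93072045 UMIs and medians of 15450.5, 9265 and 8189.5 UMIs per cell. Between 24 and 42 barcodes were shared by each pair of libraries.

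The labels were first checked against the targeted gene and the sort. Runx1t1, which the knock-in shares, had 30 UMIs in control, 28 in non_mCherry and 787 in mCherry (0.209, 0.319 and 8.46 CPM). Kit, the gene of the sorted c-kit receptor, was at 66.8, 56.6 and 270 CPM. The libraries differed in make-up: summed neutrophil-directed markers (7 genes) were at 12134, 7301 and 1288 CPM, erythroid markers (9 genes) at 667, 782 and 13.6, stem and multipotent progenitor markers (6 genes) at 103, 94.4 and 1179, and mast cell markers (5 genes) at 99.2, 191 and 11025 CPM, always in the order control, non_mCherry, mCherry. In mCherry, 1 of 9 megakaryocyte markers and 2 of 5 dendritic markers were at 0. B lineage markers (8 genes), which a lineage-negative sort should deplete, were at 63.6, 1717 and 48.9 CPM. Malat1, a nuclear RNA used as a sign of cell integrity, was at 4828, 5313 and 19749 CPM, and the median share of mitochondrial UMIs per cell was 1.88%, 1.87% and 2.5%. The part of these differences in the results over all cells was not tested, except where values within marker lists are given.

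Sequence before the RefSeq start sites of nuclear members was searched for short motifs. For 27 of the 32 members with an entry, its last 25 bases lay in the gene's own transcripts. The entries of Cox7a2l, Atp5d, Atp5g2 and Atp5j2 lie inside the gene's GENCODE span and not at its 5′ end. RefSeq promoter entries (GRCm38.p6) matched 32 of the 45 nuclear members; Uqcrq, Cyc1, Uqcrc2, Uqcrb, Cox4i1, Cox4i2, Cox6a2, Cox6c, Cox8c, Atp5f1, Atp5s, Atp5sl and Atp5a1 had none. The 250 bases before each start were searched on both strands for GCATGCGC (core of the NRF1 site, a regulator named for respiratory genes), CCGGAAGT (ETS factors), TGACGTCA (CREB), AAGATGGC (YY1) and TGTGGT (RUNX). NRF1 letters lay in 5 of 32 members (15.6%) against 2.56% of all 27025 genes with promoters. ETS letters lay in 3 (9.38%) against 3.23%, CREB letters in 2 (6.25%) against 1.77%, YY1 letters in 1 against 1.83%, and RUNX letters in 3 (9.38%) against 15.9%. The motifs do not overlap one another, although the NRF1 letters can match on both strands at one palindrome, as in Cox6a1. A match is a run of letters and not a measured site.

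Shown are the promoters of Cycs and Atp5g1, the members of at least 20 CPM furthest below control in mCherry, of Cox7a2l and Uqcrh, which were not lower there, and of Cox6a1 and Uqcr11, which hold motif letters. Capitals mark matches to any of the searched motifs, bases in annotated exons were left out, and all read 5′ to 3′ on the gene's strand, which is the minus strand in each case. Their positions are chr6:50566570-50566642 for Cycs, chr10:80406831-80407071 for Uqcr11, chr4:116075072-116075268 for Uqcrh, chr5:115348982-115349129 for Cox6a1, chr17:83514334-83514583 for Cox7a2l and chr11:96075671-96075881 for Atp5g1. The Cox7a2l stretch lies inside the gene's GENCODE span.
Cycs: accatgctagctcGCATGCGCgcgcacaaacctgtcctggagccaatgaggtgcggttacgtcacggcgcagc
Uqcr11: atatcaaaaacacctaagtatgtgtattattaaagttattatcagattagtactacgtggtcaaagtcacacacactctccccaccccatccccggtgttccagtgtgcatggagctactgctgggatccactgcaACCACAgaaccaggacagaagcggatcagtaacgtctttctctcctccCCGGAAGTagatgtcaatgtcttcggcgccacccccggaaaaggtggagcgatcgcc
Uqcrh: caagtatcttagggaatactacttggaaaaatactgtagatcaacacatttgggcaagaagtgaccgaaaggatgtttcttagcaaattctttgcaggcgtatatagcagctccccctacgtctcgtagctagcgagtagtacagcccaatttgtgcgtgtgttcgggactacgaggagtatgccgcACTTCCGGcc
Cox6a1: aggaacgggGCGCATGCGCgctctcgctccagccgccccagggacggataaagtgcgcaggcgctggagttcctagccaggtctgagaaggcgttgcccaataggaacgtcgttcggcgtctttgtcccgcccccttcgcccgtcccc
Cox7a2l: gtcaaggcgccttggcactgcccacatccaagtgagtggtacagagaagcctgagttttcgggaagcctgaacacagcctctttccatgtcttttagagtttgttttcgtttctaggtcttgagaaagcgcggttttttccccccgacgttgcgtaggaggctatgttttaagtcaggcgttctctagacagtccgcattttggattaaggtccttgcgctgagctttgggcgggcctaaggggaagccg
Atp5g1: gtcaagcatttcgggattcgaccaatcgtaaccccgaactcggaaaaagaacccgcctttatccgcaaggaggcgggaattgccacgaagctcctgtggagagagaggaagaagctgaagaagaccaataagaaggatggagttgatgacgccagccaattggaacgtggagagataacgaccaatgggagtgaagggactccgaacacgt
Cycs and Cox6a1 carry NRF1 letters (the CREB letters of Cycs lie outside the stretch shown), Uqcr11 carries ETS and RUNX letters, Uqcrh carries ETS letters, and neither Cox7a2l nor Atp5g1 holds a searched run in the stretch shown. Members with NRF1 letters (Cycs, Cox6a1, Atp5k, Atp5l and Atp5g2) had log2 ratios of mCherry over control from -1.83 (Cycs) to -0.47 (Atp5g2), the latter among the smallest differences of the lower members.

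The question of the design is what the fusion does to these cells, with the reporter-negative cells of the same mouse as a control within the animal. Summed over nuclear members, control held 19432 CPM, non_mCherry 19407 and mCherry 11495. The mCherry library stood apart, 1.69-fold below control (1.69 to 1.69) and 1.69-fold below non_mCherry (1.68 to 1.69), while the other 2 libraries were alike. The mitochondrially encoded members went the other way, at 14911, 14680.4 and 21655 CPM, 1.45-fold higher in mCherry than in control (1.45 to 1.46). For each member the ratio was taken as log2 of (CPM + 5) over (CPM + 5), a gene was counted lower or higher from a log2 ratio of 0.32 in size, and genes were included where either library reached 20 CPM.

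Of 38 nuclear members, 35 were lower in mCherry than in control, 1 was higher and 2 lay between. Among all 6578 genes measured in that comparison, 32.0% were lower and 38.6% higher. The median log2 ratio was -0.79 for nuclear members and 0.08 for all genes, and 11 members were at least 2-fold lower and 0 higher, against 9.97% and 14.9% of all genes. Against non_mCherry, 35 of 38 were again lower and 1 was higher, where 30.8% of all genes were lower and 39.0% higher. There the median was -0.83 for nuclear members against 0.10 for all genes, and 12 were at least 2-fold lower and 0 higher, against 8.95% and 14.1%. Both comparisons use the same mCherry library, so they do not repeat each other. Between non_mCherry and control, 0 of 38 nuclear members passed the threshold in either direction, where 3.68% of all genes were lower and 5.13% higher, and the median was 0.02. At 2-fold the count was also 0, where 0.178% were lower and 1.1% higher. Median-of-ratios scaling in place of the library total moved the median of all genes to -0.14 in mCherry over control and to -0.11 in mCherry over non_mCherry. It made 40.9% of genes lower and 29.8% higher in mCherry over control, and 35 of 38 nuclear members stayed lower.

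**Figure D1:**
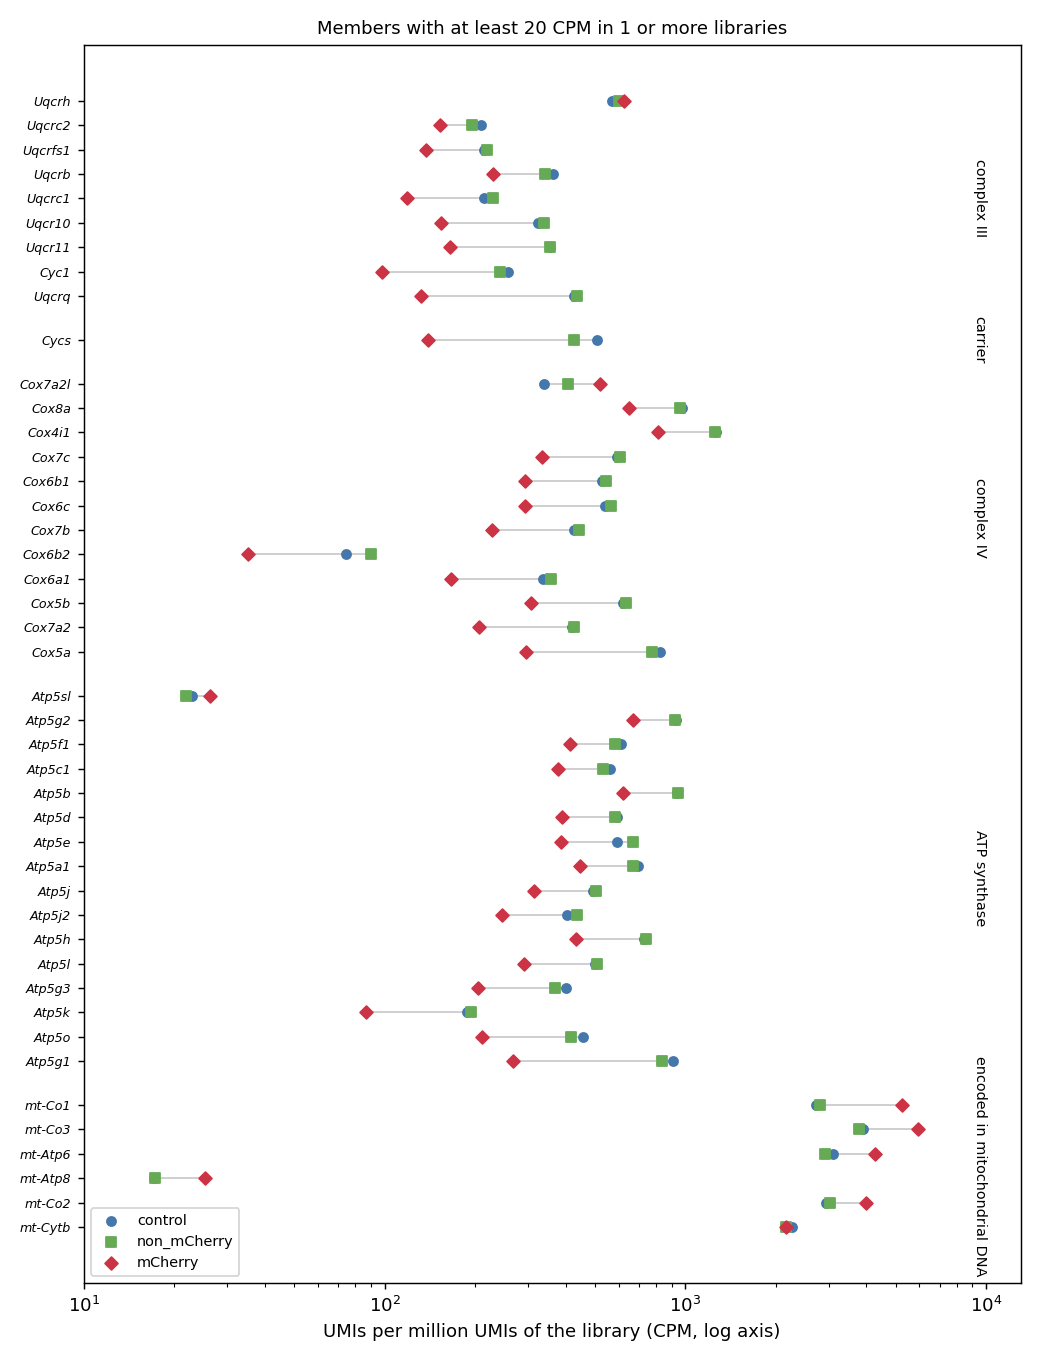
Level of each of the 44 members with at least 20 CPM, on a log axis of CPM, 1 point per library, grouped by complex and ordered by the ratio of mCherry to control. Control and non_mCherry points nearly coincide, mCherry lies to the left for nuclear members except Cox7a2l, Uqcrh and Atp5sl, and to the right for mitochondrially encoded members except mt-Cytb.

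Complex III was lower in mCherry in 8 of its 9 nuclear members, with summed levels of 2928 CPM in control, 2955 in non_mCherry and 1815 in mCherry and a median log2 ratio to control of -0.83. Uqcrq, a small subunit at the ubiquinone side, was at 426 CPM in control, 435 in non_mCherry and 133 in mCherry, 3.21-fold below control (3.15 to 3.28). Cyc1, the cytochrome c1 subunit that hands electrons to cytochrome c, was at 257, 242 and 98.3 CPM, 2.61-fold below control (2.55 to 2.67). These were the complex III members with the lowest ratios. Uqcr11 was at 354, 356 and 165 CPM and Uqcr10 at 322, 340.01 and 154 CPM; both are small accessory subunits and both were over 2-fold lower. The core proteins Uqcrc1 (215, 229 and 118 CPM) and Uqcrc2 (209, 195 and 153 CPM) and the Rieske iron-sulfur protein Uqcrfs1 (215, 218 and 137 CPM) had smaller differences, with log2 ratios to control of -0.83, -0.44 and -0.63. Uqcrb was at 362, 341 and 229 CPM. Uqcrh, the hinge protein beside cytochrome c1, was the exception, at 569 CPM in control, 600.1 in non_mCherry and 627 in mCherry. Its log2 ratio to control was 0.14, and -0.06 with median-of-ratios scaling.

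Cycs, the carrier itself, had the lowest ratio to control among the 38 nuclear members with at least 20 CPM. It was at 508 CPM in control, 426 in non_mCherry and 139.5 in mCherry, 3.64-fold below control (3.57 to 3.71) and 3.05-fold below non_mCherry (2.99 to 3.12). It was also the member with the lowest ratio of non_mCherry to control, at -0.25, short of the threshold of 0.32. Cytochrome c links complexes III and IV and is released from mitochondria in apoptosis. Its gene lies at chr6:50562563-50566538 (mm10, minus strand).

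Complex IV was lower in mCherry in 11 of 12 nuclear members with at least 20 CPM, with summed levels of 6956, 7076 and 4141 CPM and a median log2 ratio to control of -0.88. Cox5a, a subunit that binds the catalytic core, was at 826 CPM in control, 774 in non_mCherry and 294 in mCherry, 2.81-fold below control (2.77 to 2.84). The neighbouring core-binding subunit Cox5b was at 621, 634 and 308 CPM, and Cox4i1, the regulatory subunit that binds ATP, at 1267, 1256 and 811 CPM. Cox5a thus stood further below control than Cox5b (log2 ratio -1.0) and Cox4i1 (-0.64). The accessory subunits Cox6a1 (336, 356 and 166 CPM), Cox6b1 (529, 546 and 293 CPM), Cox6c (542, 566 and 294 CPM) and Cox7a2 (419, 427 and 206 CPM) were all lower in mCherry. So were Cox7b (426, 442 and 227 CPM), Cox7c (591, 607 and 333 CPM) and Cox8a (975, 957 and 651 CPM), of which Cox8a had the smallest difference, a log2 ratio of -0.58. Cox6b2, known as the testis form of Cox6b, was at 74.5 CPM in control, 90.4 in non_mCherry and 35.2 in mCherry, 2.12-fold below control (2.03 to 2.20).

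Cox7a2l was the only nuclear member counted as higher in mCherry. Its product is related to Cox7a and has been linked to supercomplexes of complexes III and IV. Whether it joins them in the mouse strain used here was not tested. The gene (chr17:83501918-83517330, minus strand) was at 340.01 CPM in control, 408 in non_mCherry and 520.4 in mCherry. It was 1.53-fold higher in mCherry than in control (1.51 to 1.55) and 1.28-fold higher than in non_mCherry (1.26 to 1.29). With median-of-ratios scaling the log2 ratios were 0.41 and 0.16, and as a mean of per-cell CPM the log2 ratio to non_mCherry was 0.12. In cells of 5000 to 12000 UMIs the log2 ratios were 0.33 to control and 0.22 to non_mCherry, so the count against non_mCherry depended on these settings.

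ATP synthase was lower in mCherry in 15 of 16 nuclear members with at least 20 CPM. Summed levels were 9039.9 CPM in control, 8950.1 in non_mCherry and 5399.5 in mCherry, and the median log2 ratio to control was -0.64. Atp5g1, 1 of 3 genes for the proton-carrying c subunit (chr11:96068852-96075670, minus strand), was at 911, 839 and 268 CPM, 3.40-fold below control (3.35 to 3.44). Atp5o, the stalk subunit that joins the catalytic head to the membrane part, was at 458, 417 and 211 CPM, and Atp5k, the membrane subunit e that helps the enzyme form dimers, at 188, 194 and 86.8 CPM. Only these 3 were at least 2-fold below control. The catalytic head showed smaller and similar differences: Atp5a1 (alpha) was at 697, 670.1 and 446 CPM, Atp5b (beta) at 938, 944 and 623 CPM and Atp5c1 (gamma) at 562, 532 and 377 CPM. Their log2 ratios to control were -0.64, -0.59 and -0.57, beside -0.60 for Atp5d (delta) and -0.61 for Atp5e (epsilon). The stalk and membrane subunits Atp5f1, Atp5h, Atp5j, Atp5j2 and Atp5l ranged from -0.56 (Atp5f1) to -0.76 (Atp5l). Atp5sl carries the prefix but is known as an assembly factor of complex I. It was at 22.9, 21.9 and 26.2 CPM, with a log2 ratio to control of 0.16 that was -0.00 with median-of-ratios scaling.

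Members under 20 CPM were mostly forms known from muscle or testis. Cox6a2, the heart and muscle form of Cox6a, was at 6.31 CPM in control and 8.68 in non_mCherry but 0.107 in mCherry, from 907, 762 and 10 UMIs, 58.8-fold below control (31.8 to 123). Within control it was at 28.0 CPM in cells high on the dendritic list and 8.82 in cells high on the monocyte-directed list, against 0.530 in cells high on the stem list, from 11, 124 and 2 UMIs. Of the 907 control UMIs, the most on any list with values were 147, on the neutrophil-directed list (2.63 CPM). The mCherry library held 2 monocyte-directed-list cells, its 66 dendritic-list cells had 0 UMIs and its stem-list cells 1. The gap was also present in cells on no list, of which mCherry held 5021. There, Cox6a2 had the lowest ratio of mCherry to non_mCherry among 39 nuclear members, a log2 ratio of -2.86. Cox4i2 was at 3.84, 3.68 and 0.967 CPM, Cox7a1 at 0.780, 1.41 and 0.419, and Atp5s, an ATP synthase coupling factor, at 7.59, 7.79 and 9.42 CPM. Cox7b2, Cox8b and Cox8c had 0 UMIs in all libraries, which allows up to 0.0209 CPM in control, 0.0342 in non_mCherry and 0.0322 in mCherry at 3 counts of the total.

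Among paralogues that fill the same place in a complex, the shares of UMIs shifted. Of all UMIs of the 3 c subunit genes, Atp5g1 took 40.7% in control (40.5 to 40.8), 39.4% in non_mCherry and 23.4% in mCherry, and Atp5g2 took 41.5%, 43.3% and 58.7%. Atp5g3 stayed at 17.8%, 17.3% and 17.8%. The mature c subunit is the same protein from all 3 genes, so in mCherry more of its transcripts came from Atp5g2 and fewer from Atp5g1. Of Cox7a1, Cox7a2 and Cox7a2l UMIs, Cox7a2l took 44.8% in control, 48.7% in non_mCherry and 71.6% in mCherry. Cox6b2 took 12.3%, 14.2% and 10.7% of Cox6b UMIs, and Cox4i1 took 99.7%, 99.7% and 99.9% of Cox4i UMIs. Within control the Atp5g1 share ranged from 28.1% in cells high on the T, NK and innate lymphoid list to 47.5% in cells high on the erythroid list. In the stem-list cells it was 30.9% in control (29.8 to 32.0), 31.7% in non_mCherry and 22.9% in mCherry. In the 4 lists with at least 50 cells in all 3 libraries (stem, megakaryocyte, basophil and dendritic), the mCherry share of Atp5g1 lay below those of both other libraries, and its Cox7a2l share lay above them.

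**Figure D2:**
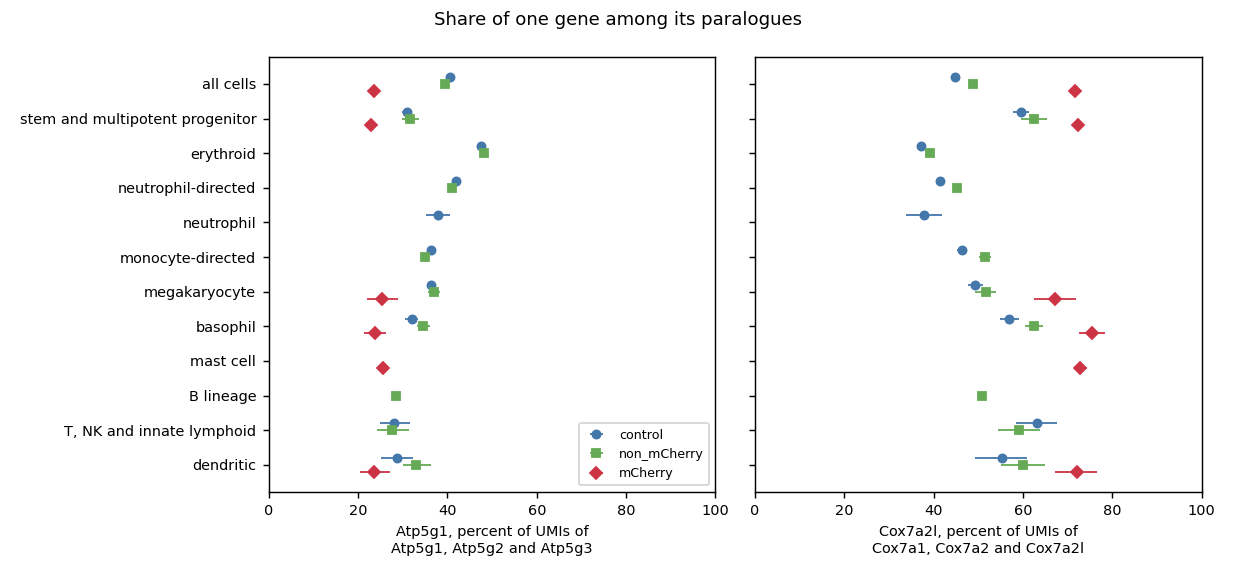
Percent of UMIs of the c subunit genes that come from Atp5g1 (left) and of Cox7a genes that come from Cox7a2l (right), for all cells and for cells high on each marker list, with exact binomial 95% intervals and 1 point per library. Atp5g1 points of mCherry lie between 22.9% and 25.5%, below those of the other libraries, and Cox7a2l points of mCherry lie between 67.2% and 75.5%, above them.

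Of the 6 mitochondrially encoded members, 5 were higher in mCherry than in control and 5 than in non_mCherry, with medians of 0.46 and 0.50. mt-Co1, the catalytic subunit of complex IV, was at 2718 CPM in control, 2807 in non_mCherry and 5265 in mCherry, 1.94-fold higher than in control (1.93 to 1.95). mt-Co3 was at 3898, 3776 and 5953 CPM, and mt-Co2, which takes the electrons from cytochrome c, at 2925, 3022 and 3991 CPM. All 3 complex IV genes of mitochondrial DNA were thus higher in mCherry. mt-Atp6, the proton channel of ATP synthase, was at 3095, 2903 and 4259 CPM, and mt-Atp8 at 17.1, 17.3 and 25.3 CPM. The reading frames of mt-Atp8, mt-Atp6 and mt-Co3 overlap, and reads of mt-Atp8 cannot be told from those of mt-Atp6 in the overlap. mt-Cytb, the complex III gene, did not share the pattern, at 2258, 2155 and 2162 CPM, with log2 ratios of -0.06 to control and 0.00 to non_mCherry. With median-of-ratios scaling, 2 of 6 were higher than control and 3 of 6 than non_mCherry. Of all genes, 29.8% and 29.98% were higher in turn, so the count against control was near the share of all genes. mt-Co1 (0.75 and 0.72) and mt-Co3 (0.41 and 0.47) were among the higher members in both. Between non_mCherry and control, 0 of the 5 measured passed the threshold.

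Taken as a ratio, which does not depend on the library total, nuclear UMIs per mitochondrially encoded UMI were 1.30 in control, 1.32 in non_mCherry and 0.531 in mCherry. The quotient of mCherry over control was 0.407 (0.406 to 0.409) and that of mCherry over non_mCherry 0.402 (0.400 to 0.403), while non_mCherry over control gave 1.01. By complex, the ratio in control, non_mCherry and mCherry was 1.30, 1.37 and 0.840 for complex III. It was 0.729, 0.737 and 0.272 for complex IV, and 2.90, 3.06 and 1.26 for ATP synthase. Complex III thus had the smallest gap, its single mitochondrial gene mt-Cytb being level between libraries. Cell by cell, nuclear members made up a median of 1.87% of UMIs in control (5th to 95th percentile 1.19 to 2.36), 1.81% in non_mCherry (1.12 to 2.43) and 1.08% in mCherry (0.752 to 1.55). Mitochondrially encoded members made up 1.51%, 1.52% and 2.14%. The middle 90% of cells overlapped between libraries for both.

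Cells were next divided by lists of lineage markers, each cell taking the list on which its score was highest, or none. These are ranges of a score and not cell types: on the stem and multipotent progenitor list, 69 of the 398 control cells, 63 of the 205 in non_mCherry and 655 of the 4155 in mCherry lay within 0.02 of the threshold. The mCherry stem-list cells also carried mast cell list UMIs at a median of 7803 CPM, above the 1372 CPM of their own list, while control stem-list cells had 777 CPM of their own list, 847.5 of the neutrophil-directed list and a median of 0 for the mast cell list. In control, summed nuclear members ran from 13221 CPM on the T, NK and innate lymphoid list through 14514 on the basophil list, 14717 on the neutrophil list, 15195 on the stem list and 15899.8 on the dendritic list to 18389.5 on the megakaryocyte list. They reached 20045 on the monocyte-directed list, 20369 on the neutrophil-directed list and 20872.5 on the erythroid list. The basophil and neutrophil lists had overlapping counting intervals and the other neighbours did not. Mitochondrially encoded members took another order, from 9585 CPM on the neutrophil list and 12498 on the neutrophil-directed list to 20634 on the T, NK and innate lymphoid list and 21249 on the stem list. The ratio of nuclear to mitochondrially encoded UMIs in control therefore ran from 0.641 on the T, NK and innate lymphoid list and 0.715 on the stem list to 1.63 on the neutrophil-directed list. Control stem-list cells thus lay between control as a whole and mCherry in this ratio. In non_mCherry the ratio was 0.847 on the stem list, 1.42 on the erythroid list and 1.18 in the 2047 B lineage-list cells. The lists with at least 50 cells in mCherry all had ratios between 0.507 (stem) and 0.773 (megakaryocyte, 58 cells), and its 5021 cells on no list were at 0.539. The basophil-list and mast cell-list cells of mCherry had a median of 2 of their own 5 markers and stay unnamed as cells. Median mast cell list UMIs also exceeded the own list in mCherry cells of the megakaryocyte (2121 and 1675 CPM), basophil (13000 and 1971) and dendritic lists (5360 and 916). In control the mast cell list median was 0 on the megakaryocyte and dendritic lists, and 1876 CPM on the basophil list beside 7692 of its own. Cells of 1 list thus carried unlike markers in mCherry and control.

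**Figure D3:**
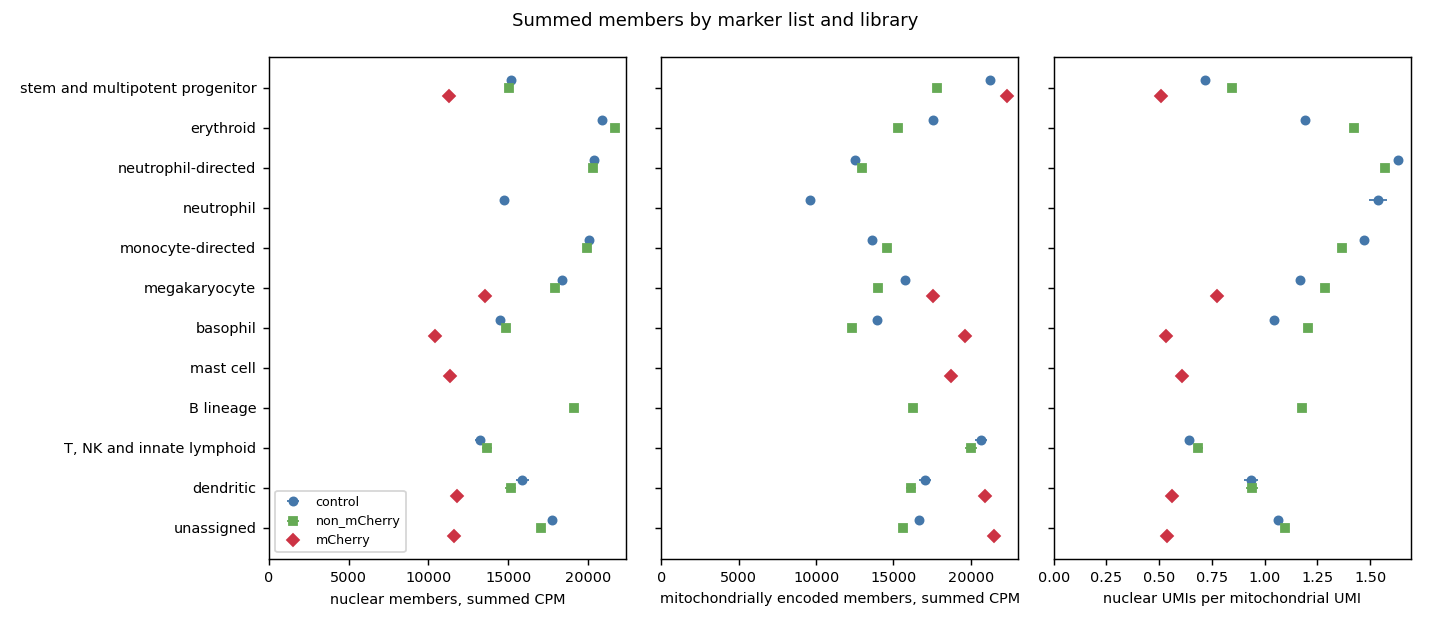
Summed CPM of nuclear members (left) and mitochondrially encoded members (middle), and their ratio (right), for cells high on each marker list with at least 50 cells, 1 point per library with exact 95% intervals. The mCherry points lie between 10418 and 13568 nuclear CPM. On each list that has a control or non_mCherry point, the nuclear CPM and the ratio of mCherry lie below it.

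Within stem-list cells, the list with the most mCherry cells, 26 of 38 nuclear members lay lower in mCherry than in control, 0 higher, where 27.5% of 6611 genes were lower and 27.3% higher. The median log2 ratio was -0.51 for nuclear members and -0.00 for all genes. Against non_mCherry stem-list cells, 23 of 38 were lower and 0 higher, where 23.7% of genes were lower and 31.3% higher, with a median of -0.42. Summed nuclear members of control, non_mCherry and mCherry stood at 15195, 15069 and 11324 CPM, so mCherry was 1.34-fold below control (1.33 to 1.35). Its stem-list Malat1 was at 20391 CPM against 10006 in control, and median UMIs per cell were 8291 against 8675. The part of Malat1 in this difference was not tested.

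Atp5g1 had the lowest ratio among stem-list cells, at 563 CPM in control (2125 UMIs), 538 in non_mCherry and 259 in mCherry. Uqcrq followed at 256, 276 and 131 CPM, and Cox5a at 519.8, 508 and 284 CPM. Cycs was at 241, 234 and 134 CPM, a log2 ratio to control of -0.82 in place of -1.83 over all cells. All 4 were at lower levels in control stem-list cells than in control as a whole. Atp5o differed between the views: it was at 206 CPM in control, 214 in non_mCherry and 208 in mCherry stem-list cells, a log2 ratio of 0.01, against -1.10 over all cells. Cox6a1 (178, 187 and 165 CPM) and Cox7b (229, 239 and 221 CPM) were also near level there, with log2 ratios of -0.11 and -0.05. Uqcrh was at 553, 637 and 620.3 CPM and Cox7a2l at 429, 505 and 523 CPM, log2 ratios of 0.16 and 0.28 that did not reach the threshold.

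Mitochondrially encoded members in stem-list cells summed to 21249 CPM in control, 17801 in non_mCherry and 22354 in mCherry. Against control, 2 of 6 were higher and 1 was lower, with a median of 0.09. Of all genes in these cells, 27.3% were higher and 27.5% lower, so neither count against control stands out. Against non_mCherry stem-list cells, 4 of 6 were higher and 0 lower, with a median of 0.39. There, 31.3% of genes were higher and 23.7% lower. mt-Co1 was at 3920.2, 3798 and 5445 CPM. mt-Cytb was at 3366, 2532 and 2215 CPM and was lower in mCherry than in control, a log2 ratio of -0.60. These 2 genes of the same small genome thus differed in opposite directions between stem-list cells of mCherry and control. The remaining gene higher than control was mt-Atp8, at 13.5, 10.8 and 26.5 CPM, from only 51, 15 and 1024 UMIs. In the same cells mt-Atp6, which overlaps it, had a log2 ratio to control of 0.07. The list with 58 mCherry cells, megakaryocyte, gave 26 of 38 nuclear members lower and 2 higher against control, where 28.8% of genes were lower and 41.8% higher, with a median of -0.49. Basophil-list cells gave 26 of 38 lower and 0 higher (24.5% and 40.0% of genes), median -0.60, and dendritic-list cells 22 of 39 lower and 1 higher (31.8% and 37.2%), median -0.50. Cells on no list gave 34 of 38 lower and 1 higher (29.7% and 33.3%), median -0.65. Against non_mCherry the counts were 27 lower and 2 higher of 38 on the megakaryocyte list (27.2% and 44.4%), 28 and 0 of 37 on the basophil list (24.0% and 43.5%), 21 and 0 of 38 on the dendritic list (26.0% and 35.9%) and 34 and 0 of 39 on no list (25.1% and 35.5%). For non_mCherry over control, 0 of 38 were lower or higher on the stem list (15.7% of genes lower, 9.52% higher) and 0 of 37 on the erythroid list (2.55% lower, 2.03% higher). On the neutrophil-directed list 0 of 38 were lower and 1 higher (1.91% and 2.3%), on the monocyte-directed list 0 lower and 2 higher (5.16% and 3.38%), and on the megakaryocyte list 0 and 0 (8.46% and 4.08%). The remaining lists gave 1 lower and 1 higher of 38 on the basophil list (11.3% and 5.12%), 2 and 5 of 38 on the T, NK and innate lymphoid list (32.3% and 17.8%) and 6 and 3 of 39 on the dendritic list (32.0% and 27.4%). Cells on no list gave 1 and 2 of 39 (4.9% and 3.73%). Mitochondrially encoded members higher in mCherry than in control were 1 of 5 on the megakaryocyte list (41.8% of genes) and 5 of 6 on the basophil list (40.0%). They were 1 of 5 on the dendritic list (37.2%) and 3 of 6 on no list (33.3%). Against non_mCherry they were 3 of 5 (44.4%), 6 of 6 (43.5%), 3 of 5 (35.9%) and 5 of 6 (35.5%) in turn. In each of these comparisons 0 were lower.

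**Figure D4:**
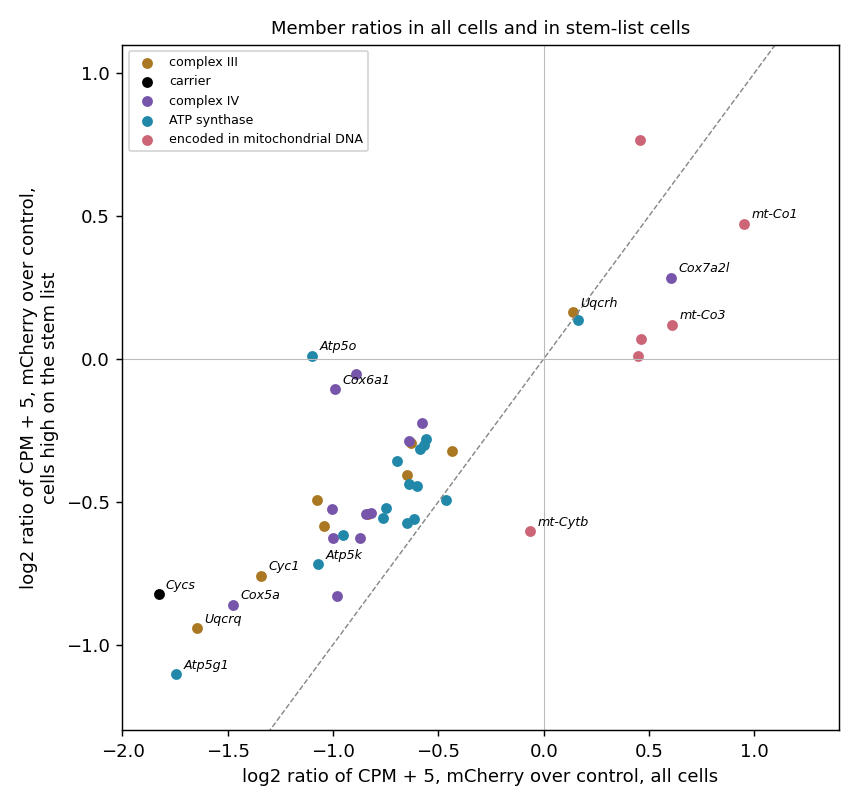
Log2 ratio of mCherry over control for each member with at least 20 CPM in either library, over all cells (horizontal) and over stem-list cells (vertical), coloured by complex, with the line of equality dashed. Cycs, Atp5g1, Uqcrq and Cox5a are the lowest over all cells and lie from -1.10 (Atp5g1) to -0.82 (Cycs) in stem-list cells, where Cox6b2 is at -0.83. Atp5o is at -1.10 over all cells and 0.01 in stem-list cells, and mt-Cytb at -0.06 and -0.60.

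Cell division was examined because the libraries differed in it: summed cell cycle markers (12 genes) were at 1704 CPM in control, 1790.1 in non_mCherry and 706 in mCherry, and Mki67 at 219, 267 and 85.1 CPM. With each cell thinned to 2000 UMIs, 83.4%, 76.3% and 40.3% of cells had a cell cycle UMI (97.0%, 90.4% and 78.1% unthinned). Free RNA can give such UMIs to cells that do not divide. Cells with such UMIs had more nuclear members within each library, with median log2 ratios over cells without of 0.18, 0.27 and 0.21, beside 0.02, 0.01 and 0.00 for all genes. The members past the threshold on the higher side were 5 of 38 in control (8.92% of all genes), 14 of 38 in non_mCherry (18.2%) and 6 of 38 in mCherry (7.04%). The lower ones were 0, 1 and 0 of 38, where 9.89%, 16.3% and 2.32% of all genes were lower. Cycs had ratios of 0.41, 0.69 and 0.48, Cyc1 of 0.41, 0.60 and 0.40, Atp5o of 0.43, 0.50 and 0.33 and Atp5g1 of 0.30, 0.53 and 0.32. Cox7a2l went the other way, at -0.27, -0.44 and -0.14, and mt-Co1 was at -0.26, -0.30 and -0.13. Cells with cycle UMIs were also deeper, with median UMIs of 16669.5 against 9129 in control and 8908 against 7857 in mCherry.

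The libraries were then compared within each kind of cell. Among cells with cycle UMIs, 35 of 38 nuclear members lay below control in mCherry and 1 above, where 29.9% of genes were lower and 38.1% higher, with a median of -0.73. Among cells without, 35 of 38 lay below and 1 above (29.4% and 36.9% of genes), again with a median of -0.73. Against non_mCherry, 34 of 38 lay below and 1 above with cycle UMIs (29.3% and 38.8%), and 33 below and 0 above without (25.8% and 36.1%). For non_mCherry over control the counts were 0 and 0 of 38 with (3.89% and 4.8%) and 1 and 1 without (8.26% and 7.08%). Cells of 5000 to 12000 UMIs, 2631 in control and 7839 in mCherry, gave 32 of 38 nuclear members lower with a median of -0.57, where 28.6% of genes were lower and 32.3% higher with a median of 0.04. Of the mitochondrially encoded members 2 of 6 were higher there, a share near that of all genes. What part depth and cycle state have in the difference over all cells was not tested. In cells of 5000 to 12000 UMIs, mt-Co2, mt-Atp6 and mt-Co3 did not reach the threshold, with log2 ratios to control of 0.20, 0.23 and 0.31. The higher ones were mt-Co1 (0.66) and mt-Atp8 (0.56), and mt-Cytb counted as lower (-0.36).

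**Figure D5:**
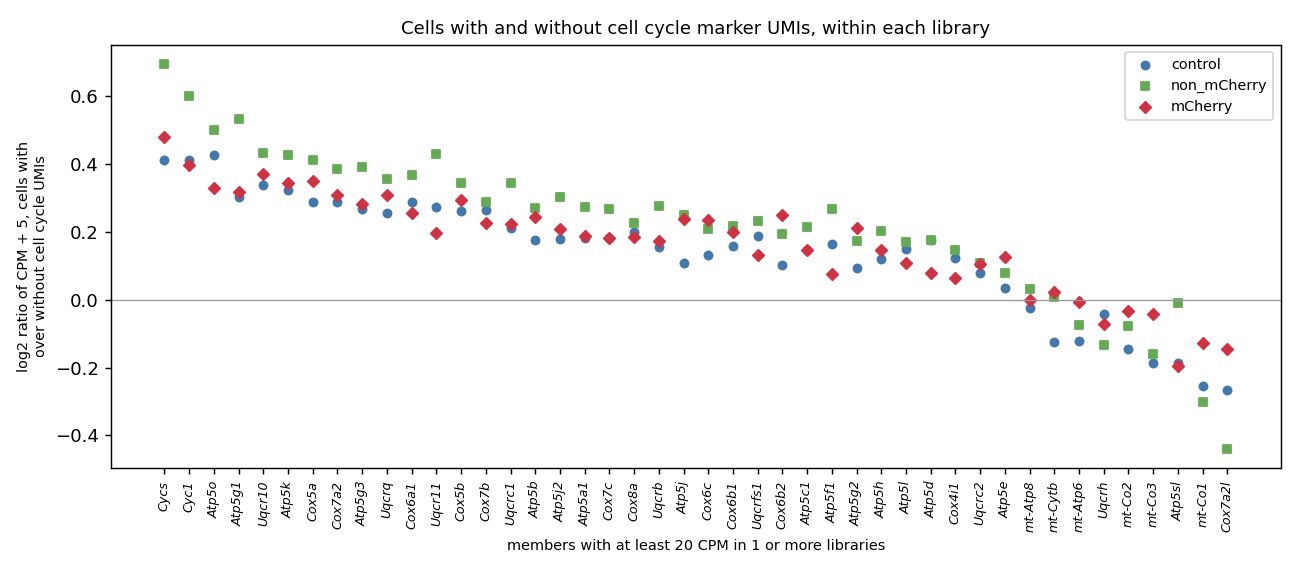
Log2 ratio of each member's CPM in cells with over cells without cell cycle marker UMIs, within each library, ordered by the mean of the 3 libraries. Cycs, Cyc1, Atp5o and Atp5g1 lie furthest above 0 and Cox7a2l and mt-Co1 furthest below.

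Other mitochondrial genes were counted by list, beside 32.0% of all genes lower and 38.6% higher for mCherry over control. Of complex I, taken by symbols that start with Ndufa, Ndufb, Ndufc, Ndufs or Ndufv, 32 of 37 nuclear genes lay below control in mCherry and 1 above, with a median of -0.71. These symbols include Ndufa4, whose product is known as a complex IV subunit and which is not among the members here. It was at 799 CPM in control, 663 in non_mCherry and 997 in mCherry, a log2 ratio of 0.58 to non_mCherry. Ndufb6 had the lowest ratio at 176 CPM in control and 61.1 in mCherry, and Ndufa6 the highest at 169 and 249.9 CPM. Of complex II, 4 of 4 lay below control, median -0.70. Mitochondrial ribosomal proteins, which translate the mitochondrially encoded members, were lower in 68 of 76 and higher in 0, with a median of -0.83. Mrpl12 was at 361 CPM in control and 116 in mCherry. The median of the nuclear members of complexes III, IV and ATP synthase, -0.79, lay between those of complex I and the mitochondrial ribosome.

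Of complex IV assembly factors, 10 of 18 lay below control and 1 above, median -0.44. Of complex III assembly factors, 1 of 4 was lower (Uqcc2, 196 CPM in control and 103 in mCherry) and 1 higher (Ttc19, 32.0 and 47.3 CPM), both shares under those of all genes. Atpif1, the inhibitor of ATP synthase, was at 774 CPM in control and 392 in mCherry, and Atpaf1, a chaperone of its catalytic head, at 20.6 and 32.6 CPM. Genes that express mitochondrial DNA were lower in 4 of 4, among them Tfam, which packages it and takes part in its transcription, at 58.8 CPM in control and 41.5 in mCherry. Of 7 regulators of respiratory genes, 1 was lower (Pprc1, 26.0 and 16.8 CPM), 1 higher (Gabpb1, an ETS partner, 24.9 and 42.1 CPM) and 5 lay between, again under the shares of all genes. Against non_mCherry, 3 of 6 regulators were higher in mCherry and 0 lower (39.0% and 30.8% of genes), with a median of 0.34. Between non_mCherry and control, 2 of 6 were lower and 0 higher (3.68% and 5.13% of genes). Myc was at 121 CPM in control, 76.3 in non_mCherry and 123 in mCherry. Slc25a5, which exchanges ATP for ADP across the inner membrane, was at 1008 CPM in control and 392 in mCherry, the lowest ratio of 5 lower among 6 carriers. Of the mt-Nd genes of complex I, 2 of 6 were higher, a share near that of all genes, from mt-Nd1 (1601 CPM in control and 1282 in mCherry) to mt-Nd3 (155 and 252 CPM).

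Some members share sequence with other annotated genes, so part of their counts is uncertain. Of the last 400 bases of transcripts of the 45 nuclear members, 8 shared at least 1 window of 90 bases with another gene, led by Atp5l with 70.7% of windows, Cox7c with 45.0% and Atp5h with 37.3%. Only Atp5h shared windows with a gene that is itself among the genes counted here. Cycs, Atp5g1, Uqcrq, Cox5a, Cyc1 and Cox7a2l shared none. Coding genes lie on the other strand within Cox4i1, Atp5a1, Atp5f1, Atp5d, Atp5j, Uqcrb, Uqcrc2, Cox6c and Cox6a2, and whether counting used the strand is not given in the sources used here. On the same strand, Cox4i1 overlaps Gm20388 and Atp5o overlaps a second annotated gene of its name, and 22.2% of the Atp5o windows were shared, so the Atp5o values are uncertain.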

How the data were processed

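Bone marrow cells of 3 libraries were analysed from the gene by cell UMI count matrices as deposited. The submitters' processing notes name Cell Ranger 6.1.2 and mm10. The matrices are stamped 3.1.0 per the file headers, so the version behind the counts is not settled. Kept barcodes had at least 1000 genes, at least 2000 UMIs and at most 10% of UMIs from mitochondrial genes. Left out were cells over 0.25 on a doublet score from simulated doublets (220 control, 159 non_mCherry and 201 mCherry cells). Counts were summed per library or marker list and divided by the library total (CPM), and log2 ratios used a pseudocount of 5 CPM. Genes had to reach 20 CPM in either library. Cells joined a marker list of at least 5 genes with a score of at least 0.15 that was 0.05 above the next, thresholds set after seeing the data, and lists under 50 cells gave no values. Cell cycle state was read after thinning to 2000 UMIs. Intervals are exact Poisson or Clopper-Pearson 95% intervals and cover counting error only; with 1 library per group no p-value was computed. Genes named are the 10 with the lowest and the 5 with the highest ratio per comparison, the mitochondrially encoded members, core subunits, paralogues and the extremes of each neighbouring list; other members are given for completeness. The members and lists were chosen with earlier results of these data known. The scaling was tested on simulated data. Alternatives were other pseudocounts, scalings, filters and cell sets. Gene positions are from GENCODE M21. Python 3.11.15, numpy 2.4.6, scipy 1.17.1, pandas 2.3.3, scikit-learn 1.9.0 and matplotlib 3.10.9 were used.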

Additional observations from a re-analysis of the deposited data

How the results depend on the processing

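The count of lower nuclear members in mCherry against control was 35 of 38 under most alternatives. It was 34 of 36 with at least 100 CPM (45.8% of all genes lower) and 37 of 45 with no filter (10.7%). In cells of 5000 to 12000 UMIs it was 32 of 38 (28.6%), and in stem-list cells 26 of 38 (27.5%). The last 2 alternatives were added after seeing the data. Median-of-ratios scaling left 2 of 6 mitochondrially encoded members higher than control and 3 higher than non_mCherry, in place of 5 and 5. With it, 29.8% and 29.98% of all genes were higher in turn. In cells of 5000 to 12000 UMIs 2 were higher than control. In stem-list cells the counts against control were 2 higher mitochondrially encoded members (27.3% of all genes higher) and 7 lower complex IV members (27.5% lower). Against non_mCherry they were 23 lower nuclear members, 5 of them in complex III and 9 in ATP synthase (23.7% of all genes lower). There, 2 mitochondrially encoded members were lower in non_mCherry than in control (15.7%). The quotient of nuclear to mitochondrially encoded UMIs, 0.407 for mCherry over control, 0.402 for mCherry over non_mCherry and 1.01 for non_mCherry over control, was 0.396, 0.403 and 0.984 (reversed) with all barcodes and 0.429, 0.440 and 0.975 (reversed) as a mean of per-cell CPM. It was 0.472, 0.469 and 1.01 without cell cycle UMIs, 0.574, 0.456 and 1.26 in cells of 5000 to 12000 UMIs, and 0.708, 0.598 and 1.18 in stem-list cells. With over 5% mitochondrial UMIs left out the first 2 were 0.412 and 0.406. The mean of per-cell CPM and cells without cell cycle UMIs each put 1 nuclear member lower in non_mCherry than in control, in place of 0. Of all genes, 8.90% and 8.26% were lower in these settings. With a stricter marker threshold the lower counts of non_mCherry over control were 3 nuclear and 1 mitochondrially encoded on the stem list, 1 nuclear on the megakaryocyte list, 0 nuclear and 1 mitochondrially encoded on the basophil list and 5 nuclear on the T, NK and innate lymphoid list. No shares of all genes are given for it, so these counts are not read as results. At the main threshold, 15.7%, 8.46%, 11.3% and 32.3% of all genes were lower on these lists in turn. The causes were not tested. The stricter threshold was not run for mCherry megakaryocyte-list cells (29 left) or for dendritic-list cells (33 control, 44 non_mCherry and 33 mCherry left). No paired analysis was possible because each group has 1 library and its replicate number only names the sample.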
